A study of Mus musculus with 12 samples.

Results

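The Myc, Max and Mxd network was followed through 10 genes, taken by gene symbol from a deposited table of TPM (a length-corrected measure of transcript abundance) that held 52550 genes. They were Myc, Mycn and Mycl, which encode the activating Myc proteins, Max, which encodes their obligate partner, and Mxd1, Mxd3, Mxd4, Mxi1, Mnt and Mga, which encode proteins that compete for Max. All 10 symbols were found once each.

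Proteins of this network share a basic helix-loop-helix leucine zipper and bind DNA as dimers. Myc paired with Max binds a short sequence called the E-box and raises transcription of genes for ribosome assembly, nucleotide synthesis, glycolysis and cell cycle entry. Mxd proteins and Mnt paired with Max bind the same sequence and recruit Sin3 and histone deacetylases, while Mga brings Max to a Polycomb-type complex. Because Max is shared, the balance of its partners is often used to describe whether cells are set for growth or for quiescence and differentiation, and Myc is among the most frequently amplified oncogenes of breast tumours.

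The libraries came from D2A1 and D2.OR, mouse mammary tumor lines that originate from separate tumours in different mice and serve as a pair, D2A1 for outgrowing and D2.OR for dormant disseminated cells. Each line was grown for 7 days on plastic (2D) or on a bed of growth-factor-reduced Matrigel (3D), and RNA was taken from pooled wells. The 3D medium held low horse serum, hydrocortisone, cholera toxin and insulin. For the RNA samples the study's methods point to their general culture section, which puts 2D cells in high-glucose DMEM, while their account of Matrigel culture puts 2D cells in the 3D medium. If the media differed, an effect of the medium and one of Matrigel cannot be told apart. There were 4 groups of 3 replicates, D2A1 2D, D2A1 3D, D2.OR 2D and D2.OR 3D, and no group carried an engineered allele or received a drug. The culture comparison asks how each line responds to 3D, and the interaction of line and culture asks whether the responses differ.

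A line is 1 tumour here, so that a difference between D2.OR and D2A1 belongs to 2 lines and not to dormancy in general. The replicate number is also the batch and the sequencing lane, and these cannot be told apart. The study states in general that its findings were repeated biologically, the labels of these libraries give only a replicate and batch number, and p-values measured the spread between these samples. Library totals ranged from 47589613 to 73325057 expected counts. Of 6 luminal epithelial markers, 5 exceeded 1 TPM in D2.OR, with Krt8 at 227.4 to 1021.96 TPM, whereas D2A1 had 2, with Krt8 at no more than 2.31 TPM and Epcam and Cdh1 at no more than 0.17 and 0.28 TPM. Krt18 was abundant in both lines, at 92.71 to 294.48 TPM in D2A1 and 124.86 to 665.85 TPM in D2.OR, and the ranges overlapped. The labels give both as breast cancer cell lines, and Krt7, Krt19, Epcam and Cdh1 were each under 1 TPM in D2A1. Ptprc and Adgre1 were at no more than 0.05 TPM in every library, and Cd68 reached 32.13 TPM in D2A1 2D.

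Some network genes hold the E-box in their own promoters. RefSeq promoter windows of GRCm38.p6, which reach from 250 bases before to 50 bases after a start, were found for 9 of the 10 genes, all but Myc. The E-box, spelled CACGTG and identical on both strands, stood in the windows of Max, Mxd4 and Mnt, or 3 of 9, against 8.09% of all 27025 genes in the table. These 3 stretches are shown because they are the network windows that hold the E-box letters, those of the hub Max and of the repressors Mxd4 and Mnt. Capitals mark the E-box, and the flanks are lower case.
Max, chr12:76962231-76962266, minus strand, E-box across the RefSeq start, its first base 3 bases before it: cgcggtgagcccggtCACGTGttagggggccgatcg
Mxd4, chr5:34187909-34187944, minus strand, first base of the E-box 219 bases before the start: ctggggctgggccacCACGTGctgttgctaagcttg
Mnt, chr11:74830786-74830821, plus strand, first base of the E-box 123 bases before the start: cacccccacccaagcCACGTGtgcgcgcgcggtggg
The RefSeq start of Max lies upstream of the gene as the deposited files' annotation draws it, and its window was not matched to a transcript. A match is a description of letters and was not tested as a binding site. An E2F-like string, TTTNNCGC searched on both strands, was found in the window of Mycn only, at 3 places of which the first and second overlap, and 5.93% of all genes held it.

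On the TPM scale, which corrects for transcript length, Mxd4 and Max were the most abundant transcripts in D2A1, and Mxd4, Myc and Max were in D2.OR. Mean levels in D2.OR 2D were 171 ± 54.3 TPM for Mxd4, 115 ± 20.0 TPM for Myc and 81.2 ± 6.18 TPM for Max (SD, n = 3). Mga, Mnt and Mxi1 followed at 34.9 ± 0.577, 21.2 ± 1.62 and 17 ± 0.822 TPM. Mxd1 at 6.72 ± 1.18 TPM and Mxd3 at 5.60 ± 2.10 TPM overlapped each other, and Mycl was lowest of the tested genes at 0.767 ± 0.125 TPM. In D2A1 2D the order differed at 1 place, where Myc at 38.2 ± 14.7 TPM stood below Max at 70.4 ± 7.05 TPM and beside Mga at 35.3 ± 3.57 TPM, within the spread of Myc. Mycn was at 0 to 0.03 TPM, which was 0 to 2 counts in any library, and was not tested. The other 9 passed the filter on low counts.

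**Figure D1:**
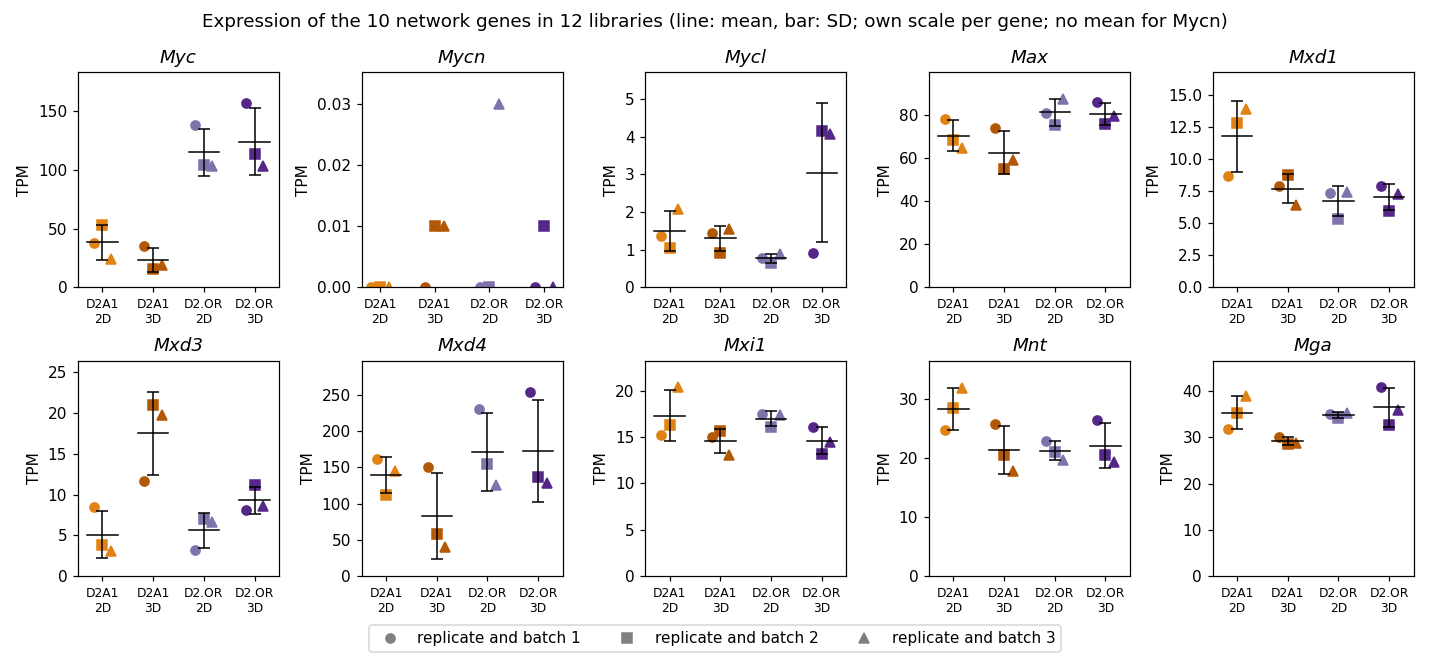
TPM of the 10 genes in each library, by group on the horizontal axis and with its own vertical scale per gene. Marker shape gives the replicate, which is also the batch, and the lines and bars give the mean and SD of 3 libraries. All 6 D2.OR libraries lie above all 6 D2A1 libraries for Myc, and replicate 1 lies apart from replicates 2 and 3 for Mycl in D2.OR 3D and for Mxd3 in D2A1.

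Comparing the lines in 2D, Myc and Max were higher and Mxd1 was lower in D2.OR than in D2A1, and the remaining 6 of 9 tested genes were not called. The test was edgeR's quasi-likelihood test across 16823 genes, with batch in the model and a call at a Benjamini-Hochberg adjusted p under 0.05. It called 49.8% of all genes in this comparison, so 3 of 9 network genes was no excess over the background. In bulk RNA, fewer cells that express a gene and less RNA per cell cannot be told apart.

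Myc lies on chr15:61985391-61990374 (GRCm38, plus strand). Its level was 37.59, 53.25 and 23.91 TPM in replicates 1, 2 and 3 of D2A1 2D and 138.18, 103.83 and 103.35 TPM in D2.OR 2D. The lowest D2.OR library was above the highest D2A1 library. The log2 fold change was 1.71 with a standard error (SE) of 0.27, or 3.28-fold, at an adjusted p of 0.00073 by edgeR. Within batches 1, 2 and 3 the log2 difference was 1.98, 1.10 and 2.23. D2.OR was thus higher in every batch, and by least where D2A1 2D replicate 2 had the highest Myc level of its line.

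Max, on chr12:76937269-76962201 (minus strand), differed far less. It was 78.19, 68.4 and 64.51 TPM in D2A1 2D and 80.76, 75.19 and 87.53 TPM in D2.OR 2D. The groups overlapped on the TPM scale but not in CPM, counts relative to the scaled library size, where D2A1 2D spanned 61.3 to 75.8 and D2.OR 2D 79.3 to 90.2. In the fit it was 0.36 higher on the log2 scale (SE 0.09, adjusted p = 0.0106 by edgeR), and in limma on log2(TPM + 1) the difference was 0.21 with an adjusted p of 0.109. With library totals alone as the scale it was 0.19 at an adjusted p of 0.1. Without replicate 2, replicate 3 or D2.OR 2D replicate 3, its adjusted p was 0.133, 0.147 and 0.0548.

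Mxd1, a repressor induced as many cell types differentiate, was 8.69, 12.85 and 13.93 TPM in D2A1 2D and 7.37, 5.35 and 7.43 TPM in D2.OR 2D. All 3 D2.OR libraries were below all 3 of D2A1. Its log2 fold change was -0.66 (SE 0.20, adjusted p = 0.023 by edgeR), with differences of -0.09, -1.07 and -0.78 in batches 1 to 3. Batch 1 held nearly none of it, because D2A1 2D replicate 1 had the lowest Mxd1 of its group. The call was lost when batch 2 or batch 3 was left out, at adjusted p of 0.203 and 0.152. It was also lost without replicate 2 or 3 of D2A1 2D or of D2.OR 2D, where the adjusted p ran from 0.0626 to 0.114.

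Among genes not called in 2D, Mycl had the largest point estimate, a log2 difference of -0.92 (95% interval -1.94 to 0.11). Its 3 D2.OR libraries, at 0.77, 0.64 and 0.89 TPM, lay below the 3 of D2A1 at 1.37, 1.05 and 2.08 TPM, and without D2.OR 3D replicate 1 its adjusted p was 0.00822. Mxd3, which is expressed in dividing cells, changed sign between batches, with differences of -1.27, 1.05 and 1.23. Mxd4, Mxi1, Mnt and Mga had log2 differences between -0.25 and 0.38, and Mxd4 was at 0.67 with an adjusted p of 0.049 without D2A1 2D replicate 3. Mnt was called lower in 3 of 24 alternatives, at -0.42 with library totals (adjusted p = 0.0323), -0.42 without D2A1 2D replicate 1 (adjusted p = 0.00812) and -0.37 without replicate 1 of every group (adjusted p = 0.0167). Leaving out D2A1 2D replicate 1 brought Mxd3 to 1.06 (adjusted p = 0.00302), and without replicate 1 of every group 6 of 9 network genes were called, beside 9062 of all genes.

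In 3D, 5 of 9 network genes were higher in D2.OR than in D2A1 and none was lower. In either direction 53.8% of all genes were called, with 4655 of 16823 higher and 4389 lower. The 5 network genes were Myc, Mycl, Max, Mxd4 and Mga, so that activators, hub and repressors were all among them. Myc had the smallest p of the 5.

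Myc was 34.91, 15.45 and 18.84 TPM in D2A1 3D and 156.57, 113.09 and 103.42 TPM in D2.OR 3D. The D2.OR libraries lay far above, with no overlap. The log2 fold change was 2.45 (SE 0.27, 5.46-fold, adjusted p = 0.0001 by edgeR), with differences of 2.19, 2.83 and 2.42 in batches 1 to 3. Over 24 other settings and left-out libraries Myc was called in all 24 in each culture, at 1.48 to 2.16 in 2D and 2.20 to 2.64 in 3D. Ordered by mean, Myc was 124 ± 28.3 TPM in D2.OR 3D, 115 ± 20.0 in D2.OR 2D, 38.2 ± 14.7 in D2A1 2D and 23.1 ± 10.4 in D2A1 3D, and the neighbours within a line overlapped.

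Mxd4, on chr5:34173883-34187720 (minus strand), is the repressor with the most transcripts here. It was 150.93, 57.68 and 40.1 TPM in D2A1 3D and 253.86, 137.33 and 127.81 TPM in D2.OR 3D. In each batch D2.OR was higher, but D2A1 3D replicate 1 stood above D2.OR 3D replicates 2 and 3, so that the groups overlapped. By edgeR the log2 fold change was 1.20 (SE 0.25, adjusted p = 0.00332), and the within-batch differences were 0.72, 1.26 and 1.75. Without the batch term the adjusted p was 0.0619, and without batch 2 it was 0.0602. Mxd4 was also the only network gene called between batches (adjusted p = 0.0483, against 6.58% of all genes), and replicate 1 was its highest library in all 4 groups.

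Mycl, on chr4:122995652-123002485 (plus strand), was first found as an amplified relative of Myc in lung cancer. It was 1.44, 0.92 and 1.54 TPM in D2A1 3D and 0.92, 4.16 and 4.08 TPM in D2.OR 3D. Replicates 2 and 3 of D2.OR 3D were above every other library, while replicate 1 was at the level of D2A1. For Mycl the fitted log2 fold change was 1.28 (SE 0.45, adjusted p = 0.0386 by edgeR), and the batches gave -0.35, 2.01 and 1.58. Batch 1 thus had the opposite sign, and the call was kept in only 12 of 24 alternatives. It was lost without replicate 2 or 3 of D2A1 3D, D2.OR 2D or D2.OR 3D, at adjusted p from 0.0527 to 0.206, and leaving out replicate 2 of D2.OR 3D gave the smallest of these differences, 0.74.

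Max was 73.83, 54.93 and 58.86 TPM in D2A1 3D and 85.83, 75.59 and 79.7 TPM in D2.OR 3D, with no overlap, a log2 fold change of 0.34 (SE 0.09) and an adjusted p of 0.0125 by edgeR. Its adjusted p was 0.173 without batch 2, 0.0844 without batch 3 and 0.0667 without D2A1 3D replicate 2. Mga, which carries a T-box beside its dimerisation domain, was 30.15, 28.65 and 28.87 TPM in D2A1 3D and 41.01, 32.7 and 35.89 TPM in D2.OR 3D. These groups did not overlap either, but the difference was small, at 0.29 (SE 0.10, adjusted p = 0.0412), and it was called in 10 of 24 alternatives. The call of Mga was lost on leaving out each batch, each D2A1 3D library, each D2.OR 2D library or replicate 1 or 3 of D2.OR 3D, with adjusted p from 0.0505 to 0.176. Mxd3 was the gene with the lowest estimate in 3D, at 8.08, 11.22 and 8.57 TPM in D2.OR 3D below 11.67, 21.01 and 19.79 TPM in D2A1 3D. No library overlapped, yet at -0.95 (95% interval -1.95 to 0.05) its adjusted p was 0.0986, and it was 0.00195 without D2A1 2D replicate 1. Mxd1, called in 2D, was at -0.19 in 3D (95% interval -0.64 to 0.27).

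Mnt, which is present in resting and dividing cells alike, was 25.79, 20.49 and 17.82 TPM in D2A1 3D and 26.48, 20.52 and 19.26 TPM in D2.OR 3D, and Mxi1 was 15.06, 15.64 and 13.12 TPM and 16.07, 13.16 and 14.48 TPM. Both sets of libraries overlapped. Mnt and Mxi1 had log2 differences of 0.01 (95% interval -0.30 to 0.32) and -0.04 (-0.33 to 0.24).

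**Figure D2:**
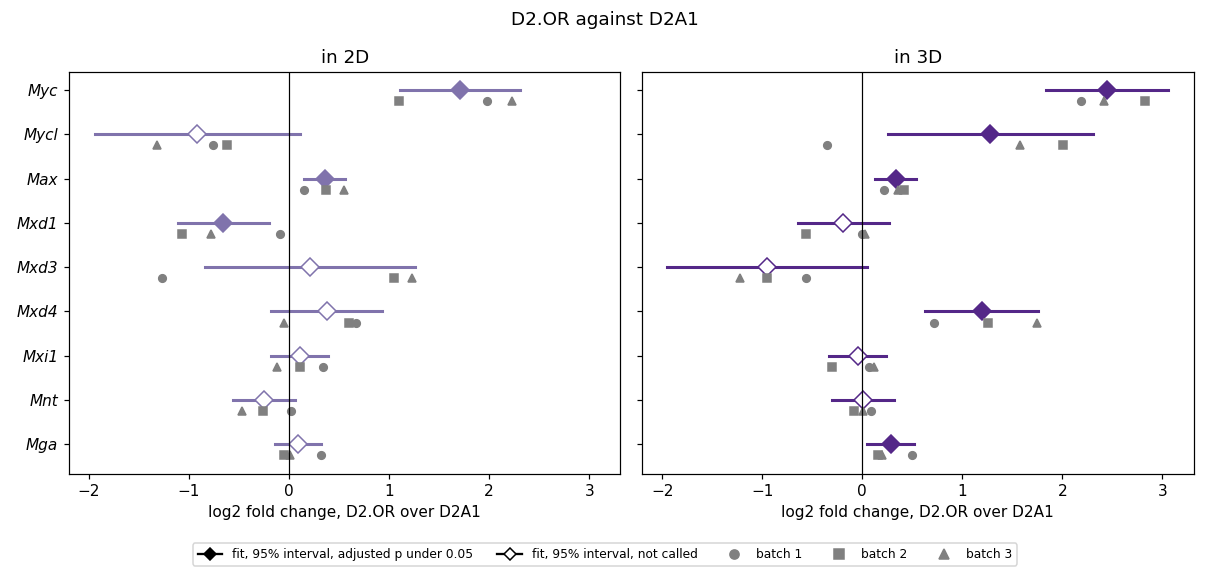
Log2 fold change of D2.OR over D2A1 for the 9 tested genes, in 2D at left and 3D at right. Diamonds with lines give the fitted value and its 95% interval, filled where the adjusted p was under 0.05, and grey markers give the differences within batches 1 to 3. Myc lies farthest to the right in both panels, at 1.71 and 2.45, and the grey markers of Mycl in 3D fall on both sides of 0.

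Neither line had a network gene called between 3D and 2D. In D2.OR this was 0 of 9, with 1.62% of all genes called and 1 network gene, Mycl, at an unadjusted p under 0.05 by edgeR. DESeq2 called 1, also Mycl. In D2A1 it was 0 of 9, with 3.48% of all genes called. There 5 network genes were at an unadjusted p under 0.05 by edgeR and 3, Myc, Mxd3 and Mxd4, were called by DESeq2. Of all 16823 genes, 2967 in D2.OR and 5282 in D2A1 had an unadjusted p under 0.05 by edgeR. DESeq2 called 1174 and 3512 of all genes.

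In D2.OR the Myc level was close in both cultures. Its log2 difference of 3D over 2D was 0.03 with a 95% interval from -0.55 to 0.61, and the batches gave 0.05, 0.05 and 0.00. Max was at -0.08 (-0.28 to 0.13) and Mga at -0.02 (-0.25 to 0.22). The interval of Myc excluded a change as large as the difference between the lines.

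Mycl in D2.OR went from 0.77, 0.64 and 0.89 TPM in 2D to 0.92, 4.16 and 4.08 TPM in 3D. Each 3D library was above every 2D library. In the fit the log2 fold change was 1.88 (SE 0.47, 95% interval 0.83 to 2.93, adjusted p = 0.089 by edgeR), and the batches gave 0.17, 2.57 and 2.29, so that batches 2 and 3 carried the difference. It was called by DESeq2 (adjusted p = 0.00338) and without D2.OR 3D replicate 1 (2.43, adjusted p = 0.00517). Beside it, Plin1 and Fabp4, which mark adipocytes, were at 6.33 to 75.01 and 50.87 to 402.55 TPM in D2.OR 3D and at no more than 1.36 and 33.9 TPM in the other groups. Summed over all 3 adipocyte markers the range was 57.4 to 480 TPM in D2.OR 3D and 4.41 to 34.0 TPM elsewhere, with Adipoq at no more than 2.03 TPM, and their part in the result was not tested.

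In D2A1, the 3D estimate was lower for every tested network gene but Mxd3, and none passed the threshold. Mxd3, on chr13:55325168-55329823 (minus strand), was 8.45, 3.76 and 3.07 TPM in 2D and 11.67, 21.01 and 19.79 TPM in 3D. All 3D libraries were above all 2D libraries. The log2 fold change was 1.85 (SE 0.47, 95% interval 0.79 to 2.91, adjusted p = 0.056 by edgeR), with differences of 0.50, 2.65 and 2.81 in batches 1 to 3. It was called in 7 of 24 alternatives, among them DESeq2 (adjusted p = 0.00215) and the fit without D2A1 2D replicate 1 (2.70, adjusted p = 0.000417).

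Mki67, a marker of cycling cells that was chosen after its values were seen, was 33.22, 20.51 and 18.76 TPM in D2A1 2D and 40.0, 56.35 and 64.21 TPM in D2A1 3D. It was 17.82, 36.56 and 43.11 TPM in D2.OR 2D and 33.21, 52.98 and 50.76 TPM in D2.OR 3D, where Mxd3 was 3.19, 7.02 and 6.60 and then 8.08, 11.22 and 8.57 TPM. In both lines the 2D library with the extreme Mki67 level, the highest in D2A1 and the lowest in D2.OR, was replicate 1, and the same held for Mxd3. Of the 6 proliferation markers, all 6 were lowest in replicate 1 of D2.OR 2D in TPM and in CPM. In D2A1 2D, 4 were highest in replicate 1 in TPM and 5 in CPM, where Top2a was 259, 245 and 193, and Mcm2 was highest in replicate 2 on both scales. All 6 proliferation markers had a positive estimate for 3D in each line, with a median log2 difference of 1 in D2A1 and 0.34 in D2.OR, and 0 of 6 called in either. At an unadjusted p under 0.05 by edgeR the numbers were 6 in D2A1 and 1 in D2.OR, beside 5282 and 2967 of all 16823 genes. Over the alternatives up to 6 were called in D2A1 and 0 in D2.OR. The 6 were called without batch 1 and without D2A1 2D replicate 1, beside 6120 and 5237 of all genes. These are RNA levels. In the paper, KI67 protein staining after a shorter culture found no positive D2.OR cells in 3D, and a cell cycle reporter placed nearly all of them in G0/G1. The part of cell division in the Mxd3 levels was not tested.

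Mxd4 in D2A1 was 160.95, 112.33 and 145.48 TPM in 2D and 150.93, 57.68 and 40.1 TPM in 3D. Replicates 2 and 3 were lower in 3D, and replicate 1 was nearly level, at within-batch differences of -0.09, -0.91 and -1.76. Its log2 fold change was -0.91 (SE 0.25, 95% interval -1.47 to -0.34, adjusted p = 0.0628 by edgeR), and -1.15 at an adjusted p of 0.0112 without D2A1 2D replicate 1. Myc had -0.70 (95% interval -1.3 to -0.11, adjusted p = 0.11), mostly from batch 2, where the difference was -1.69 against -0.17 and -0.18 in batches 1 and 3. Myc was called lower in 3D by DESeq2 (-0.72, adjusted p = 0.0471) and without replicate 1 of every group (-0.99, adjusted p = 0.045). Mxd1 was at -0.53 and Mnt at -0.36, both with an adjusted p of 0.114. Without D2A1 2D replicate 1, 5 of 9 were called, Mxd3 higher and Mxd1, Mxd4, Mnt and Mga lower, beside 5237 of all genes.

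**Figure D3:**
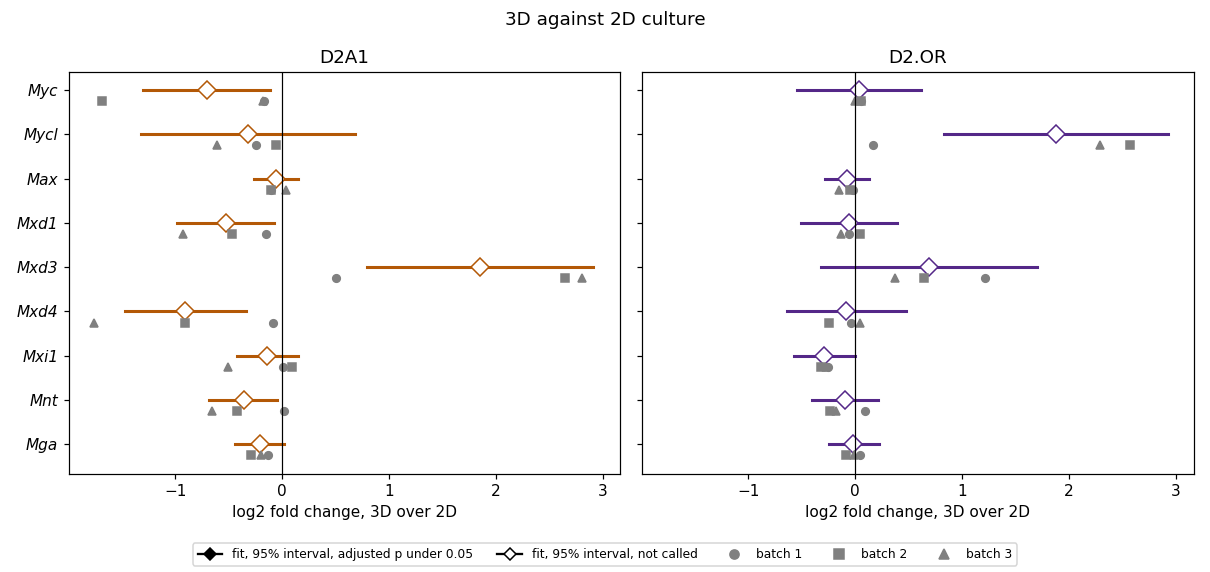
Log2 fold change of 3D over 2D for the 9 tested genes, D2A1 at left and D2.OR at right, drawn as in the plot of line differences. All diamonds are open, since no gene was called, and batch 1 (circles) lies closer to 0 than batches 2 and 3 for Mxd3 and Mxd4 in D2A1 and for Mycl in D2.OR.

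The interaction of line and culture was called for 0 of 9 network genes by edgeR, with 0.0238% of all genes called. At an unadjusted p under 0.05 by edgeR there were 2, beside 2997 of all 16823 genes. DESeq2 called 1, beside 944 of all genes. The largest estimate was that of Mycl at 2.20 (SE 0.64, 95% interval 0.75 to 3.65, adjusted p = 0.161), followed in size by Mxd3 at -1.15 (-2.61 to 0.31) and Mxd4 at 0.82 (0.03 to 1.61, adjusted p = 0.269). For Myc it was 0.74 (-0.09 to 1.56, adjusted p = 0.328), made up of 0.21, 1.74 and 0.19 in the 3 batches, and its interval held 0. Without D2.OR 3D replicate 1 the Mycl interaction was 2.76 (adjusted p = 0.0345), and without D2A1 2D replicate 1 that of Mxd3 was -1.96 (adjusted p = 0.006).

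Seen as a pool, the transcripts of the partners of Max were split differently in the 2 lines. Myc made up 8.55 to 20.2% of the summed TPM of the 9 partners in D2A1 2D, 9.16 to 12.9% in D2A1 3D, 30.3 to 32.6% in D2.OR 2D and 30.6 to 33.4% in D2.OR 3D. The range of D2.OR was narrow, and no D2A1 library reached it. The ratio of Myc to Max TPM was 0.371 to 0.779 and 0.281 to 0.473 in D2A1 2D and 3D and 1.18 to 1.71 and 1.3 to 1.82 in D2.OR, so that Myc transcripts outnumbered those of Max in D2.OR alone. These ratios restate the Myc levels and were not tested separately.

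Among the repressors Mxd4 held 53.8 to 64.4% of the summed TPM in D2A1 2D, 59.4 to 72.9% in D2.OR 2D and 59.9 to 71.8% in D2.OR 3D. In D2A1 3D its share was 62.5% in replicate 1 and 37.9 and 31.8% in replicates 2 and 3. The sum of the 6 repressors was 242, 152 and 126 TPM in replicates 1, 2 and 3 of D2A1 3D, against 209 to 254 TPM in D2A1 2D. The share of Mxd3 among Mxd1, Mxd3, Mxd4 and Mxi1 was 6.29, 20.4 and 24.9% in D2A1 3D and no more than 6.69% in any other group.

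**Figure D4:**
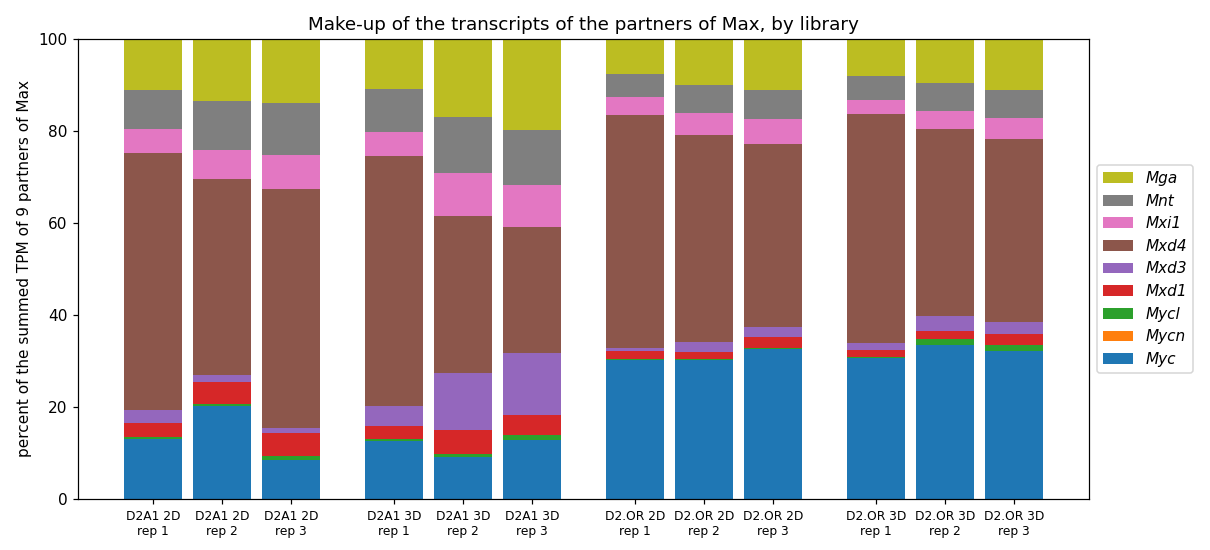
Percent of the summed TPM of the 9 partners of Max in each of the 12 libraries, stacked by gene. The Myc segment spans 30.3 to 33.4% in the 6 D2.OR libraries and 8.55 to 20.2% in the 6 D2A1 libraries, and the Mxd4 segment is shortest in D2A1 3D replicates 2 and 3.

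Genes that Myc is known to activate were mostly lower or not called in D2.OR, the line with more Myc RNA. Of 22 ribosome biogenesis genes, 0 were higher and 6 lower in D2.OR in 2D, and 0 higher and 11 lower in 3D. Of 18 genes of metabolism and growth, 0 were higher and 12 lower in 2D, and 0 higher and 17 lower in 3D. Of 6 cell cycle targets, 1 was higher and 3 lower in 2D, and 0 higher and 4 lower in 3D. Median log2 differences were -0.33, -0.67 and -0.78 in 2D and -0.52, -0.99 and -1.07 in 3D, against medians of 0.00 for all genes. Of all genes, 49.8 and 53.8% were called, a share that the metabolism list, at 12 and 17 of 18, and the cell cycle list, at 4 of 6 in each culture, exceeded in this fit. The ribosome biogenesis list, at 6 and 11 of 22, did not when both directions were counted. Counted as lower alone, all genes had 4103 of 16823 in 2D and 4389 in 3D. The list's count of lower genes ran from 0 to 18 in 2D and from 6 to 18 in 3D over the alternatives. Its standing against all genes thus depended on the setting.

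Named examples were picked by p-value and are no separate support for the counts. Shmt1, Gart, Dkc1 and Nop56 were picked by the line difference in 2D, and Npm1 and Ldha by the interaction. Shmt1, which transfers one-carbon units in the cytosol, was 23.2 ± 6 TPM in D2A1 2D and 8.76 ± 1.35 TPM in D2.OR 2D, a log2 fold change of -1.37 (SE 0.23, adjusted p = 0.00103 by edgeR). Gart, an enzyme of purine synthesis, was at -1.06 (SE 0.18, adjusted p = 0.00114). Dkc1 and Nop56, which modify and assemble ribosomal and small nucleolar RNA, were at -0.96 and -0.92 in 2D and -1.03 and -1.02 in 3D, and all were called. The 2D call of Nop56 was kept in 19 of 24 alternatives and lost with only the 6 libraries compared, without batch 1 or 2 and without replicate 2 of D2A1 2D or of D2.OR 2D, at adjusted p from 0.0549 to 0.162. Npm1, the nucleolar chaperone, was at -0.26 in 2D (adjusted p = 0.133) and -0.72 in 3D (adjusted p = 0.0017). Ldha, the lactate-forming enzyme, was at -0.12 (adjusted p = 0.561) and -1.10 (adjusted p = 0.000388).

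Of the genes named from the 3 lists that Myc activates, Ccnd2 in the cell cycle list had the widest difference. Ccnd2, encoding cyclin D2, was 91.5 ± 23.4 TPM in D2A1 2D and 1.01 ± 0.298 TPM in D2.OR 2D, a log2 fold change of -6.70 (SE 0.17, adjusted p = 3.06e-08 by edgeR). Tert, the catalytic subunit of telomerase, was at -1.19 in 2D and -1.51 in 3D. Cdk4 was the 1 target that was higher in 2D, by 0.25 (adjusted p = 0.0428), and was at -0.10 in 3D. Its call was kept in only 8 of 24 alternatives, and was lost with library totals, with no filter, in both limma fits, with only the 6 libraries compared, without batch 2 or 3 and without any of 9 single libraries, at adjusted p from 0.0611 to 0.436.

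The ribosome biogenesis list depended on batch, on single libraries and on the scale. Its median in 2D was -0.63, -0.51 and 0.21 in batches 1 to 3, and the number of lower genes was 2, 0 and 13 of 22 without batches 1, 2 and 3. In 3D the medians were -0.62, -0.36 and -0.54, and 9, 6 and 8 genes were lower. Without D2A1 2D replicate 3, 18 of 22 were lower in each culture, and without replicate 2 of D2A1 2D or of D2.OR 2D 1 was lower in 2D. With library totals 15 and 16 were lower in 2D and 3D, and with only the 6 libraries compared 1 and 18. The metabolism list kept its sign in each batch, at -1.08, -0.73 and -0.28 in 2D and -1.19, -0.90 and -0.98 in 3D, with 11, 5 and 12 and then 16, 13 and 15 genes lower when batches 1, 2 and 3 were left out. Of 6 proliferation markers, 1 was lower in D2.OR in 2D and 3 in 3D, with medians of -0.02 and -0.70. Of all 16823 genes, 4103 were lower in 2D and 4389 in 3D. The median of the markers in batches 1 to 3 was -0.77, 0.23 and 0.67 in 2D and -0.69, -0.61 and -0.77 in 3D. Without D2A1 2D replicate 1, 4 and 5 of the 6 markers were called in 2D and 3D, beside 8865 and 10298 of all genes. Over the alternatives up to 3 markers were higher in 2D and 0 in 3D. The part of proliferation in the target lists was not tested.

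Of 6 genes that Myc is known to repress, 1 was higher and 1 lower in D2.OR in 2D, and 3 were higher and 0 lower in 3D. Counted in either direction, these shares were below the 49.8 and 53.8% of all genes. By direction, 4275 of all 16823 genes were higher and 4103 lower in 2D, and 4655 higher and 4389 lower in 3D. Without replicate 1 of every group 2 of the repressed genes were higher and 3 lower in 2D, beside 9062 of all genes called. The higher gene in 2D was Ndrg2, at 0.05 ± 0.0436 TPM in D2A1 2D and 32.3 ± 28.1 TPM in D2.OR 2D, a fitted log2 fold change of 9.32 (SE 0.85, adjusted p = 3.5e-05 by edgeR) from a level near 0. Gadd45a, a stress-induced growth inhibitor, was lower, at -1.70 (SE 0.42, adjusted p = 0.00912), and its D2A1 2D level of 129 ± 102 TPM varied widely. The call of Gadd45a was lost without batch 2, without batch 3 and without D2.OR 2D replicate 2, at adjusted p from 0.0519 to 0.0907. In 3D Gadd45a was at 0.34 (adjusted p = 0.507).

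Counted in either direction, regulators of the network were called no more often than all genes were, at 49.8% in 2D and 53.8% in 3D. The exceptions were the Mga partners in 3D and the cofactors in 2D. Of all 16823 genes, 4103 were lower in 2D and 4389 in 3D. Of 14 genes acting on Myc protein turnover, 0 were higher and 4 lower in 2D and 0 and 7 in 3D. Over the alternatives 2 to 8 were lower in 2D and 1 to 9 in 3D, with the 1 without batch 2. Fbxw7, the receptor of the ubiquitin ligase that marks Myc for degradation, was at -0.91 in 2D and -0.58 in 3D, and Usp28, which opposes it, was at -1.06 and -0.91, so that a pair of antagonists was lower together. Of 9 partners of Mga in its Polycomb complex, 0 were higher and 4 and 5 lower, with Rnf2 at -0.56 and Pcgf6 at -0.60 in 2D. Without batch 2, 1 was called in each culture, and without replicate 2 or 3 of D2A1 3D or replicate 1 or 3 of D2.OR 3D 2 were called in 3D. Of 15 cofactors, 4 were higher and 5 lower in 2D and 1 and 5 in 3D, and 4 were called in 2D without batch 2. Zbtb17, through which Myc represses, was at -0.80 and -0.83, and Hdac2, recruited by Mxd proteins, at 0.55 and 0.54.

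Mlx, the dimer partner of a parallel network that shares Mxd1, Mxd4 and Mnt, was 64.1 ± 7.23 TPM in D2A1 2D and 35.2 ± 1.67 TPM in D2.OR 2D, a log2 fold change of -0.59 (SE 0.09, adjusted p = 0.00071 by edgeR). Its glucose-sensing partner Mlxipl was at 4.12 in 2D and 5.11 in 3D from a low level, with means of 0.133 and 0.170 TPM in D2A1. Of the 5 genes of this arm, 1 was higher and 1 lower in 2D and 3 higher and 1 lower in 3D, against 49.8 and 53.8% of all genes called. Pvt1, the noncoding gene next to Myc that is often amplified with it, was not called. It was at 5.35 ± 1.45 TPM in D2A1 2D and 4.46 ± 0.878 TPM in D2.OR 2D, with log2 differences of -0.22 in 2D (adjusted p = 0.445) and -0.34 in 3D (adjusted p = 0.231).

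Between cultures these lists had few calls. In D2.OR none of the 9 lists had a called gene by edgeR. Over the alternatives the list of repressed genes had up to 3 calls there, the Mlx arm up to 2 and the metabolism list up to 1, with the 3 and the 2 on leaving out batch 1, and DESeq2 called 1 repressed gene. Of all genes in D2.OR, 1412 were called on leaving out batch 1 and 1174 by DESeq2. In D2A1 Ldha rose by 0.75 (adjusted p = 0.0442) and Gadd45a fell by 2.14 (adjusted p = 0.042). These calls were fragile. Both lists had 0 calls by edgeR without the batch term, with only the 6 libraries compared, without batch 2 or 3, and on leaving out replicate 2 or 3 of D2A1 2D, D2A1 3D or D2.OR 3D or any D2.OR 2D library. DESeq2 called 7 of 18 and 4 of 6, beside 3512 of all genes. The median of the metabolism list for 3D over 2D was 0.50 in D2A1, with 18 of 18 estimates positive, and 0.23 in D2.OR, with 14 of 18. In D2A1 its batches gave 0.09, 0.49 and 1.01. Without D2A1 2D replicate 1 or without batch 1, more genes were called in D2A1, up to 13 of 18 in the metabolism list and 12 of 22 in the ribosome biogenesis list. These fits called 5237 and 6120 of all genes in D2A1. No gene of either list was called lower there in any alternative.

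**Figure D5:**
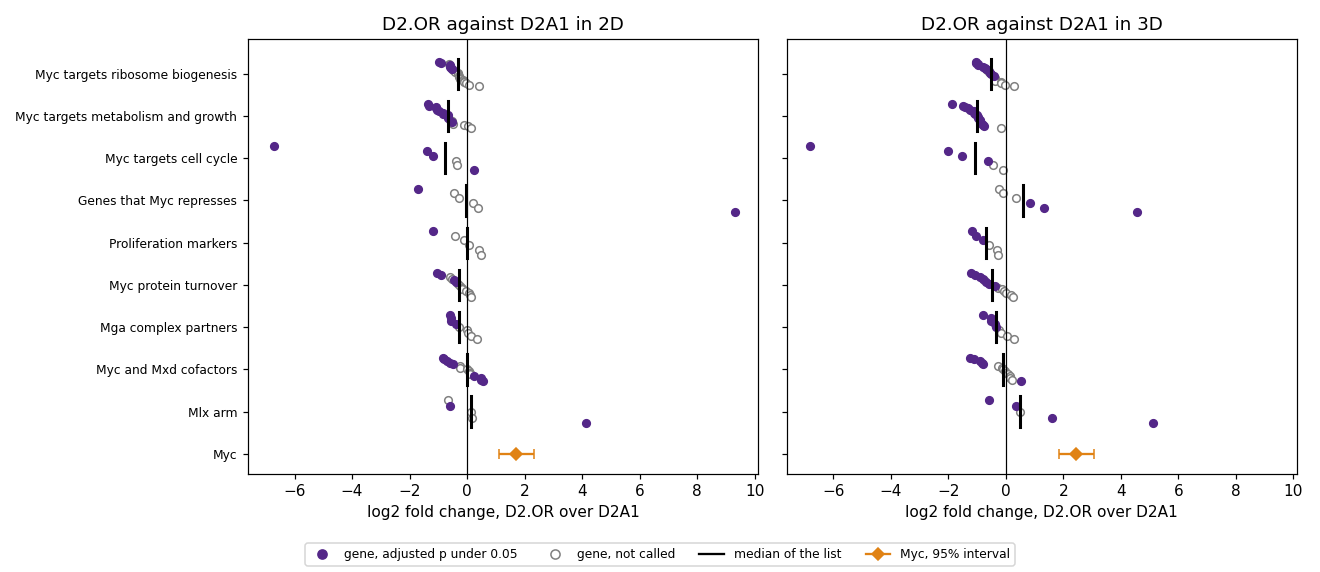
Log2 fold change of D2.OR over D2A1 for each gene of 9 lists around the network, in 2D at left and 3D at right, with Myc and its 95% interval at the bottom. Filled points were called, and black bars are medians. The bars of the 3 lists of genes that Myc activates lie left of 0 in both panels, from -0.33 to -1.07, while Myc lies at 1.71 and 2.45.

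Over the 12 libraries, the genes whose log2 CPM followed Myc most closely, among 9629 with a mean of at least 10 CPM, were Fads3 (r = 0.988), Mcu, the pore of the mitochondrial calcium uniporter (r = 0.986), and Lims1, a focal adhesion adaptor (r = 0.981). The most opposite were Traf3ip1 (r = -0.981), Srebf2, a regulator of sterol synthesis (r = -0.979), and Crtc2 (r = -0.979). These values mostly restate that the libraries fall into 2 lines. Within the 6 libraries of D2A1 and of D2.OR, r was 0.94 and 0.66 for Fads3, 0.92 and 0.88 for Mcu and -0.88 and -0.92 for Traf3ip1. Among network genes, r with Myc within D2A1 and D2.OR was 0.65 and 0.96 for Mxd4, 0.67 and 0.83 for Mnt and 0.36 and 0.88 for Mga. It was 0.51 and 0.10 for Max, 0.26 and 0.47 for Mxd1 and -0.25 and 0.19 for Mxi1. The points share batches and library scaling, and the values are a description.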

How the data were processed

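RNA of 12 libraries was sequenced at BGI. The authors checked reads with FastQC 0.11.4, trimmed them with Trimmomatic 0.32, aligned them with STAR 2.5.3 (build GRCm38, gene models of GENCODE release M15) and estimated abundance with RSEM 1.3.0. The deposited values used here were RSEM expected counts and TPM per gene. The TPM table and the library files differed by at most 0.0 TPM. The deposited FPKM values were not used. RSEM shares reads between similar transcripts, so some expected counts were not whole, and they were rounded. Per library this held for 10.68 to 11.84% of all 52550 genes, a share that includes genes without reads.

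Genes were filtered with filterByExpr, scaled by TMM (factors 0.923 to 1.07) and tested in edgeR 4.0.16 (R 4.3.3, quasi-likelihood) over all 12 libraries with group and batch terms, and p-values were adjusted over 16823 genes. The SE is the absolute log2 fold change over the square root of F. CPM were computed from the counts with TMM, with a prior count of 2 on the log2 scale. The coefficient of biological variation was 21.2%. Totals had a median of 61747090, so that counting error was small for all tested network genes except Mycl and Mxd3, whose lowest counts were 66 and 117. DESeq2 1.42.0 and limma 3.58.1 (pseudocounts 1 and 0.1) were alternatives. The script was tested on simulated counts.

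The labels give batch as the replicate number. Deviations from group means correlated at 0.08 to 0.51 (median 0.27) over 18 pairs of same-numbered libraries and at a median of -0.19 otherwise.

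All 10 members were named. From each gene list, the 2 genes with the smallest p for the lines in 2D and the 1 with the smallest interaction p could be named, and the 3 genes most and least like Myc. Mki67 was named outside this rule. The members and lists were chosen with earlier results of these data known. Promoters were RefSeq windows of GRCm38.p6, in the build of the files. Of the 9 members with a window, all but Max had their sequence after the start in the annotated transcripts.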

Additional observations from a re-analysis of the deposited data

Results flagged for a closer look

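The estimates for Mycl in 3D against 2D had opposite signs in the 2 lines. Its level was higher in 3D in every batch of D2.OR, by 0.17, 2.57 and 2.29 on the log2 CPM scale, and lower in every batch of D2A1, at -0.24, -0.06 and -0.61. On the TPM scale batch 1 of D2A1 had the opposite sign, with 1.37 TPM in 2D and 1.44 TPM in 3D. The difference of the responses was 2.20 (SE 0.64) with an adjusted p of 0.161 in edgeR, so the difference itself did not pass the test. In DESeq2 it was 2.21 at an adjusted p of 0.0226, and the adjusted p ranged from 0.00504 to 0.847 over 23 alternatives. Mycl had 66 to 499 counts per library.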

How the results depend on the processing

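Of the 9 tested network genes, 3 and 5 were called between the lines in 2D and 3D, 0 between cultures in D2.OR and in D2A1, 0 for the interaction and 1 between batches. Without the replicate block these were 3, 4, 0, 0 and 0, and over all genes 7391, 8037, 20, 52 and 0, against 8378, 9044, 273, 586 and 4. With library totals alone 3 were called in 3D, and with only the 6 libraries compared 1 in 2D. DESeq2 called 1 in D2.OR, 3 in D2A1 and 1 for the interaction, and 1174, 3512 and 944 of all genes. In D2A1, 2 were called with no filter on low counts and 1 with either limma fit. With DESeq2 size factors 0 were called between batches. Leaving out libraries or batches gave 1 to 6 in 2D, 1 to 6 in 3D, 0 to 1 in D2.OR, 0 to 6 in D2A1, 0 to 3 for the interaction and 0 to 3 between batches. Without D2A1 2D replicate 1, 5237 of all genes were called between cultures in D2A1 and 2509 for the interaction, and without batch 2 or batch 3 edgeR called 0 in D2A1. With no filter, a minimum of 10 counts or only the 6 libraries compared, D2.OR had 415, 159 and 809 genes and D2A1, with no filter, 6 libraries or the smaller pseudocount in limma, 1117, 15 and 1135. The interaction had 96 with no filter and 13 and 9 in limma, and 2535 genes were called between batches by DESeq2, against 1107. Over all alternatives the lines had at least 4227 and 5273 genes, D2.OR 0 to 1412, D2A1 0 to 6120 and the interaction 0 to 2999. The cause was not tested.

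The call of Myc between the lines was kept throughout, and every reversed estimate belonged to a gene not called. With library totals alone, the median of all genes moved to -0.17 in 2D and -0.10 in 3D, and 38.6% of calls in 2D were higher in D2.OR, against 51.0%, and 41.0 and 41.8% in limma. In D2.OR 68.7% of calls were higher in 3D with library totals and 65.4% in limma with the smaller pseudocount, against 51.6%, and in D2A1 25.6 and 27.6% in limma, against 39.2%. The smaller pseudocount in limma moved the median of all genes to -0.11 in 2D and 0.13 for the interaction. With library totals, Mxi1 and Mga in 2D went to -0.06 and -0.07, Mnt in 3D to -0.09, Mxd1 and Mga between cultures in D2.OR to 0.02 and 0.06 and the Max interaction to 0.04. In limma with either pseudocount, Mxi1 and Mga in 2D went to -0.02 and -0.01, Mxd1, Mnt and Mga between cultures in D2.OR to 0.07, 0.05 and 0.06, and the Max and Mxi1 interactions to 0.16 and 0.01. With at least 10 counts in every library Mga in D2.OR went to 0.0. Over left-out libraries, the 2D line difference spanned -0.26 to 1.15 for Mxd3, -0.01 to 0.25 for Mxi1 and -0.02 to 0.16 for Mga, and in 3D -0.33 to 0.01 for Mxd1, -0.15 to 0.09 for Mxi1 and -0.12 to 0.08 for Mnt. Between cultures in D2.OR they spanned -0.04 to 0.11 for Myc, -0.21 to 0.08 for Mxd1, -0.15 to 0.02 for Mxd4 and -0.12 to 0.05 for Mga, in D2A1 -0.12 to 0.01 for Max and -0.26 to 0.05 for Mxi1, and -0.09 to 0.06 for the Max interaction.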
